A study of Mus musculus with 18 samples.

Results

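The genes described here are 8 genes of apoptosis and necroptosis, Fas, Tnfrsf1a, Ripk1, Ripk3, Mlkl, Bax, Bak1 and Bbc3. They were chosen by symbol, and all 8 were found among the 23420 gene symbols of the count tables. RNA sequencing of the mouse retina was carried out in 9 mice, 3 in each of 3 groups, and the comparisons ask how transcript levels differ after light damage and under the galectin-3 inhibitor TD139. Counts from 2 flow cell runs were summed for each mouse, so that the mouse was the replicate.

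All mice were wild-type (wt) BALB/cJ animals, an albino strain, and the study's methods give an age of 8 to 10 weeks and both sexes. Naïve mice received neither light nor treatment. Vehicle mice were exposed to light of 15000 lux for 1 h and injected daily into the peritoneum with DMSO from the day before light exposure. TD139 mice received the same light and TD139 at 15 mg/kg in DMSO on the same schedule. Retinas were taken at day 4. Vehicle and naïve mice therefore differ in both the light and the injections, and these cannot be told apart.

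Death receptors of the tumor necrosis factor receptor family, such as FAS and TNFR1 (the product of Tnfrsf1a), carry signals from outside the cell to caspase-8 or, where caspase-8 is not active, to the kinases RIPK1 and RIPK3. RIPK3 phosphorylates MLKL, which then breaks the plasma membrane, and this form of death is called necroptosis. In the mitochondrial pathway, BH3-only proteins such as PUMA (the product of Bbc3) release BAX and BAK (the product of Bak1) to open the outer mitochondrial membrane. Loss of photoreceptors is the known outcome of bright light in albino mice, and microglia, the resident macrophages of the retina, gather around the damaged cells.

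Each mouse had between 26171887 and 30201517 reads counted on genes. Expression is given as CPM, counts scaled to library size with edgeR's TMM factors, and a difference was called when edgeR's quasi-likelihood F test gave a Benjamini-Hochberg adjusted p-value under 0.05 over all 15196 tested genes. The rod markers, the defining genes of the retina's main photoreceptor, summed to between 49800 and 99360 CPM in all 9 mice. The 16 markers of microglia and macrophages summed to 78.7 to 83.3 CPM in naïve mice and to 450.4, 331.7 and 611.5 CPM in vehicle mice 1, 2 and 3. In TD139 mice they summed to 202.3, 67.0 and 57.5 CPM. TD139 mouse 1 thus lay between its own group and the vehicle mice, and vehicle mouse 3 was the highest of all. Lgals3, which encodes galectin-3, the target of TD139, had 7.67 ± 2.29 CPM in naïve, 47.1 ± 17.4 CPM in vehicle and 5.75 ± 4.24 CPM in TD139 mice (mean ± SD, n = 3 each). As a partial check of the labels, the Lgals3 counts of TD139 mice (70 to 286) all lay under those of vehicle mice (1011 to 2001). Naïve mice had 153 to 264 counts, within the range of TD139 mice, so the check cannot tell these 2 groups apart.

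The sequences before the starts of Fas, Tnfrsf1a, Bax and Bak1 are shown here, because these 4 members were called in at least 1 comparison. They are the 250 bases before each gene's start in RefSeq on GRCm38.p6, 5′ to 3′ on the gene's own strand. Capitals mark matches, on either strand, to any of 7 motifs that were searched: the GC box GGGCGG, the TATA box TATAAA, the AP-1 motif TGANTCA, the STAT motif TTCNNNGAA, the interferon response element, the NF-kappaB motif and the p53 half-site.
Fas, chr19:34290409-34290658, plus strand: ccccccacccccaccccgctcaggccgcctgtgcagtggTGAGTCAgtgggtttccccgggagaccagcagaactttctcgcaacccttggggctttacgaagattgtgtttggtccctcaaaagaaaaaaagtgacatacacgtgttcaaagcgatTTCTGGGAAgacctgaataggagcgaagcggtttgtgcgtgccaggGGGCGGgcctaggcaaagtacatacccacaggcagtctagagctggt
Tnfrsf1a, chr6:125349473-125349722, plus strand: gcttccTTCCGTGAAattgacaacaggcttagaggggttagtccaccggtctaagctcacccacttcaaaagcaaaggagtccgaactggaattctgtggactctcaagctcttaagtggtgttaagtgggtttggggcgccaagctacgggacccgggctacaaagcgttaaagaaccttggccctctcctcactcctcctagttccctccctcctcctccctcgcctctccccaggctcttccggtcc
Bax, chr7:45466899-45467148, minus strand: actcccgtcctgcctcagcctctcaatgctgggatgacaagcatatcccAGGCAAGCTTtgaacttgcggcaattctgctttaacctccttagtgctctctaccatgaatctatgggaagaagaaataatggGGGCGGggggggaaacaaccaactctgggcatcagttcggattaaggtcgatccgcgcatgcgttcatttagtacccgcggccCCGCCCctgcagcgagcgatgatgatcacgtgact
Bak1, chr17:27028628-27028877, minus strand: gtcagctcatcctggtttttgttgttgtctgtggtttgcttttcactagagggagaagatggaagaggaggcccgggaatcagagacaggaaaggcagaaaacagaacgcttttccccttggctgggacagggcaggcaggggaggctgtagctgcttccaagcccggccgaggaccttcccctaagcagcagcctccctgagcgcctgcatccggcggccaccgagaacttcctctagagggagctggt

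The Fas window held an AP-1 match, a STAT match and a GC box, starting 211, 93 and 47 bases before the gene's start. The Tnfrsf1a window held a STAT match 244 bases before the start, and the Bax window held a p53 half-site at 201 bases and GC boxes at 118 and 35 bases. None of these matches overlapped another. For Tnfrsf1a and Bak1 the RefSeq start lies downstream of the GENCODE start given with the values, so that both windows lie inside the GENCODE span of their gene. The Bak1 window held no match to the 7 motifs, which says only that these letters were not in this window. Of 32851 RefSeq windows of the same length, 32.7% held the GC box, 12.4% the TATA box, 7.02% the STAT motif, 6.75% the AP-1 motif, 7.13% the p53 half-site, 5.93% the NF-kappaB motif and 2.98% the interferon response element. The 4 windows had GC contents of 56.4% (Fas), 55.6% (Tnfrsf1a), 54.0% (Bax) and 58.4% (Bak1). The matches are a description and were not tested as binding sites.

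In naïve retinas the 8 genes spanned a wide range of levels, which are compared between genes only as CPM per kb of the longest annotated transcript. Bax was the highest with 40.8 ± 5.88 CPM per kb, followed by Bak1 with 9.58 ± 0.105, Tnfrsf1a with 5.43 ± 1.27, Bbc3 with 3.16 ± 0.853 and Ripk1 with 1.47 ± 0.113 (mean ± SD, n = 3). Fas had 0.369 ± 0.155 CPM per kb. Ripk3 and Mlkl were lowest, with 0.0376 ± 0.0492 and 0.0316 ± 0.0288 CPM per kb, and these 2 did not differ beyond their spread. The ranges of Tnfrsf1a (4.10 to 6.63) and Bbc3 (2.54 to 4.13) over the 3 naïve mice also overlapped, whereas those of the other neighbours in this order did not. In vehicle mice Tnfrsf1a, at 24.4 ± 10.4 CPM per kb, stood above Bak1, at 11.8 ± 1.63 CPM per kb. The 2 most abundant genes in naïve mice thus encode the pore formers of the mitochondrial pathway, and the 2 rarest encode the core of the necroptosis machinery.

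Fas, on chromosome 19 from 34290666 to 34327772 (GRCm38, GENCODE M21), encodes the receptor of FAS ligand. The 3 naïve mice had 16, 9 and 23 counts, the vehicle mice 65, 96 and 218, and the TD139 mice 26, 12 and 10. In CPM these are 0.615, 0.339 and 0.843 in naïve mice, 2.32, 3.39 and 7.33 in vehicle mice and 0.964, 0.417 and 0.395 in TD139 mice. All vehicle mice lay above all mice of both other groups, which overlapped each other. Fas rose in vehicle against naïve mice by a log2 fold change of 2.85 ± 0.53 (SE, 95% confidence interval 1.69 to 4.00, edgeR adjusted p = 0.0192). It fell in TD139 against vehicle mice, with a log2 fold change of −2.87 ± 0.53 (95% confidence interval −4.02 to −1.71, edgeR adjusted p = 0.00604). In whole retina, a difference in the number of cells of a type and a difference in RNA per cell cannot be told apart.

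Tnfrsf1a, on chromosome 6 from 125349362 to 125362484, encodes TNFR1, the receptor through which tumor necrosis factor can lead to either form of death. It had 8.84, 12 and 14.3 CPM in naïve mice, 40.8, 38.5 and 78.5 CPM in vehicle mice and 17.5, 6.33 and 7.59 CPM in TD139 mice. The vehicle mice again lay above all others, and TD139 mouse 1 was the highest of its group. Tnfrsf1a rose in vehicle against naïve mice by a log2 fold change of 2.17 ± 0.45 (95% confidence interval 1.14 to 3.20, edgeR adjusted p = 0.0302). In TD139 against vehicle mice it fell, with a log2 fold change of −2.33 ± 0.45 (95% confidence interval −3.37 to −1.29, edgeR adjusted p = 0.00932). The vehicle mice are common to both comparisons, so the rise and the fall are not independent of each other.

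Fas and Tnfrsf1a were the only members called in vehicle against naïve mice, 2 of the 6 members tested, and both were higher. Over all tested genes, 4.91% were called higher and 2.89% lower in this comparison, so that 63.0% of calls were higher, and 77.6% with scaling to library size alone. These calls depended on single mice: the adjusted p-value of Fas was 0.0600, 0.0788 and 0.0631 without naïve mouse 1, naïve mouse 2 and vehicle mouse 3, where its log2 fold changes were 2.88, 2.58 and 2.25. That of Tnfrsf1a was 0.0927, 0.109, 0.0824, 0.0617 and 0.0750 without naïve mice 1, 2 and 3 and vehicle mice 1 and 3, with log2 fold changes of 1.76 to 2.35 over all such fits (edgeR). In TD139 against vehicle mice, both genes were called with any 1 of the 9 mice left out.

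**Figure D1:**
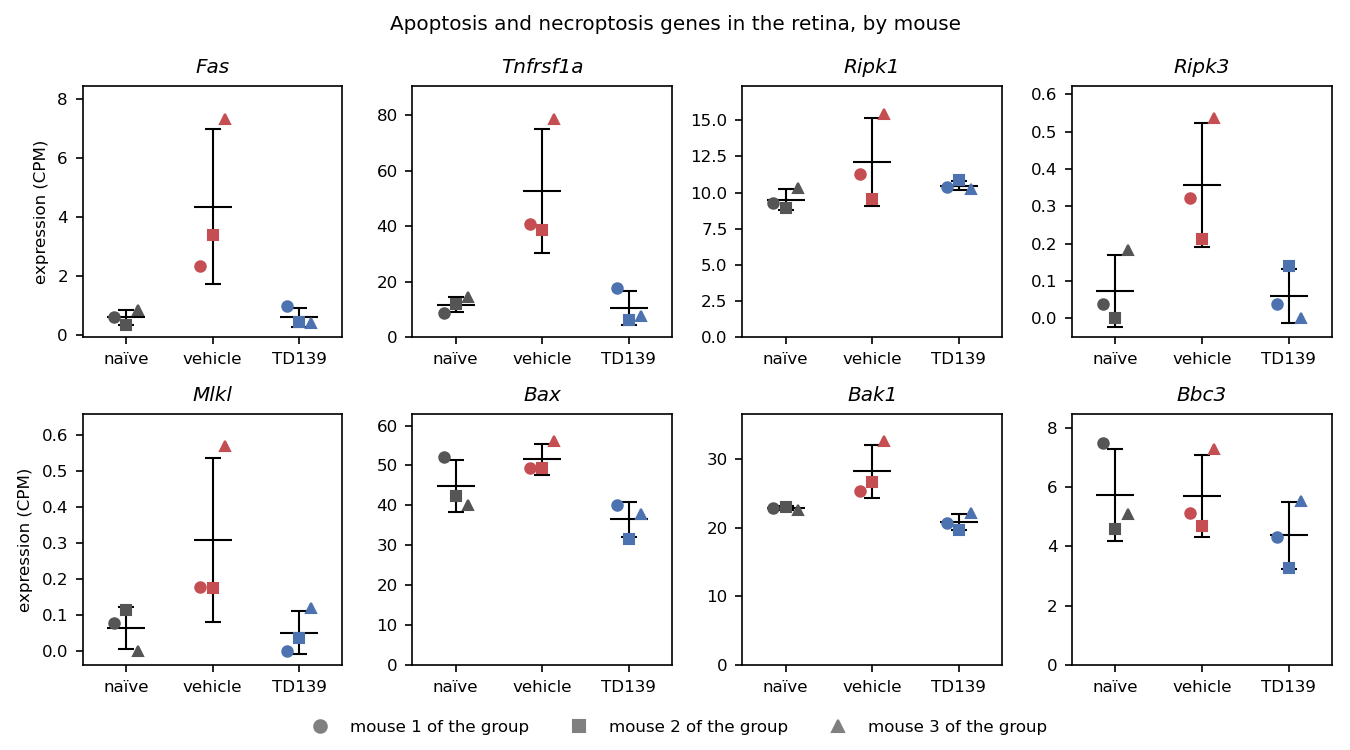
Expression of the 8 genes in CPM (vertical axes) in naïve, vehicle and TD139 mice; each point is a mouse, its shape gives the mouse's number in its group, and bars are the mean ± SD (n = 3). Fas and Tnfrsf1a of the vehicle mice lie above all other mice, whereas Bbc3 overlaps between all groups.

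Of the necroptosis genes, Ripk1 was tested and not called, and Ripk3 and Mlkl were too rare to test. Ripk1, on chromosome 13 from 34002363 to 34037147, encodes the kinase that links the receptors to either death or survival. It had 9.26, 8.93 and 10.3 CPM in naïve mice, 11.3, 9.54 and 15.5 CPM in vehicle mice and 10.4, 10.9 and 10.2 CPM in TD139 mice. The groups overlapped, since vehicle mouse 2 lay within the naïve range. The log2 fold change was 0.35 ± 0.18 in vehicle against naïve mice (95% confidence interval −0.05 to 0.74, edgeR adjusted p = 0.235) and −0.21 ± 0.18 in TD139 against vehicle mice (95% confidence interval −0.60 to 0.19, edgeR adjusted p = 0.390). Exons of Gm17084, a processed pseudogene on the same strand that is not among the counted symbols, overlap those of Ripk1. Exons of Serpinb6a, on the opposite strand, overlap them too, and the strand setting of the counting is not given in the sources used here. Serpinb6a had 22.8 ± 4.42 CPM in vehicle and 10.2 ± 3.56 CPM in TD139 mice (mean ± SD, n = 3), so the Ripk1 values are uncertain to that extent.

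Ripk3, on chromosome 14 from 55784995 to 55788865, and Mlkl, on chromosome 8 from 111311797 to 111338177, had too few counts to be tested. Ripk3 had 1, 0 and 5 counts in naïve mice, 9, 6 and 16 in vehicle mice and 1, 4 and 0 in TD139 mice. Mlkl had 2, 3 and 0 counts in naïve mice, 5, 5 and 17 in vehicle mice and 0, 1 and 3 in TD139 mice. For both genes every vehicle mouse lay above every mouse of the other groups, although most of those mice were at or under the floor of 3 counts below which a gene is not detectable here. Summed over mice, Ripk3 had 31 counts in vehicle against 6 in naïve mice, a ratio per depth of 5.12 (exact 95% interval 2.10 to 15.0), and 5 in TD139 mice, a ratio of 0.161 to vehicle mice (0.0489 to 0.418). Mlkl had 27 counts in vehicle against 5 in naïve mice, a ratio of 5.35 (2.03 to 17.8), and 4 in TD139 mice, a ratio of 0.148 to vehicle mice (0.0377 to 0.425). These intervals cover counting error only and not the spread between mice. When edgeR was run without the filter on low counts, neither gene was called. The adjusted p-values were then 0.224 for Ripk3 and 0.227 for Mlkl in vehicle against naïve mice, and 0.106 for both in TD139 against vehicle mice.

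Of the 6 tested members, 3 (Fas, Tnfrsf1a and Bak1) had every vehicle mouse above every naïve mouse, a pattern shown by 16.7% of all tested genes. With Bax, 4 of the 6 had every TD139 mouse below every vehicle mouse, as did 25.4% of all tested genes. Ripk3 and Mlkl showed both patterns in their counts, but they were not tested and lay near the floor.

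In the mitochondrial pathway, Bax and Bak1 were called lower in TD139 than in vehicle mice by a small amount, and Bbc3 was not called. Both calls were lost after a correction for transcript length and GC content, where the log2 fold changes were 0.03 for Bax and −0.10 for Bak1 (edgeR adjusted p = 0.800 and 0.524). They were also lost without vehicle mouse 3, TD139 mouse 2 or TD139 mouse 3. Bax, on chromosome 7 from 45461697 to 45466898, had 52.2, 42.4 and 40.0 CPM in naïve mice, 49.4, 49.2 and 56.0 CPM in vehicle mice and 40.0, 31.6 and 37.8 CPM in TD139 mice. Its highest naïve mouse was above 2 of the vehicle mice, whereas every TD139 mouse was below every vehicle mouse. Exons of Gm45808, a protein-coding gene on the same strand that is not among the counted symbols, overlap those of Bax. The log2 fold change of Bax was −0.50 ± 0.13 in TD139 against vehicle mice (95% confidence interval −0.78 to −0.22, edgeR adjusted p = 0.0148) and 0.20 ± 0.13 in vehicle against naïve mice (edgeR adjusted p = 0.330).

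Bak1, on chromosome 17 from 27019810 to 27029009, had 22.9, 23.1 and 22.6 CPM in naïve mice, 25.3, 26.7 and 32.6 CPM in vehicle mice and 20.7, 19.7 and 22.1 CPM in TD139 mice. The 3 groups did not overlap, and the naïve mice spread little, with an SD of 0.252 CPM (n = 3). The log2 fold change of Bak1 was −0.44 ± 0.12 in TD139 against vehicle mice (95% confidence interval −0.70 to −0.17, edgeR adjusted p = 0.0188). In vehicle against naïve mice it was 0.30 ± 0.12 (95% confidence interval 0.04 to 0.57, edgeR adjusted p = 0.129), which did not pass the threshold. Ggnbp1 on the opposite strand overlaps exons of Bak1. Its level was 8.59 ± 0.623 CPM in naïve, 7.77 ± 0.421 CPM in vehicle and 6.05 ± 1.26 CPM in TD139 mice (mean ± SD, n = 3).

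Bbc3, on chromosome 7 from 16308393 to 16318205, encodes PUMA, which p53 is known to induce. It had 7.49, 4.60 and 5.09 CPM in naïve mice, 5.11, 4.70 and 7.29 CPM in vehicle mice and 4.30, 3.27 and 5.53 CPM in TD139 mice. All 3 groups overlapped. The log2 fold change was −0.01 ± 0.27 in vehicle against naïve mice (95% confidence interval −0.60 to 0.59, edgeR adjusted p = 0.991) and −0.39 ± 0.27 in TD139 against vehicle mice (95% confidence interval −0.98 to 0.21, edgeR adjusted p = 0.284).

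In TD139 against vehicle mice, 4 of the 6 tested members were lower (Fas, Tnfrsf1a, Bax and Bak1) and 0 were higher. By edgeR's unadjusted p, DESeq2 and limma the number higher was 0 as well. Over all tested genes, 16.2% were called lower and 17.2% higher, so that 51.6% of calls were higher, and 39.0% with scaling to library size alone. The median log2 fold change of the 6 tested members was −0.47, beside −0.02 over all tested genes, and in vehicle against naïve mice it was 0.33, beside −0.00175. Fold changes of TD139 against vehicle mice moved with transcript length over 15066 genes (Spearman 0.490) and with GC content (−0.357), a description across genes. Reads outside genes made up 21.3 to 22.8% in TD139 mice and 16.5 to 19.9% in the other 6 mice, and the part of this difference in the results was not tested. Bax, at 1100 nt, and Bak1, at 2387 nt, are shorter than the median transcript of 3380 nt, and Ripk1, at 6472 nt, is longer.

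After a correction of each mouse's counts for length and GC content, the log2 fold change of Bax was 0.03 ± 0.08 (edgeR adjusted p = 0.800) and that of Bak1 −0.10 ± 0.11 (adjusted p = 0.524) in TD139 against vehicle mice. Ripk1 was called lower after the same correction, with a log2 fold change of −0.62 ± 0.18 (adjusted p = 0.0355). Fas was still called at −2.68 ± 0.53 (adjusted p = 0.0121), as did Tnfrsf1a at −1.99 ± 0.43 (adjusted p = 0.0213). The calls of Bax and Bak1 also lapsed without vehicle mouse 3 (adjusted p = 0.0583 and 0.0790), TD139 mouse 2 (0.0719 and 0.0815) or TD139 mouse 3 (0.0514 and 0.0520).

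**Figure D2:**
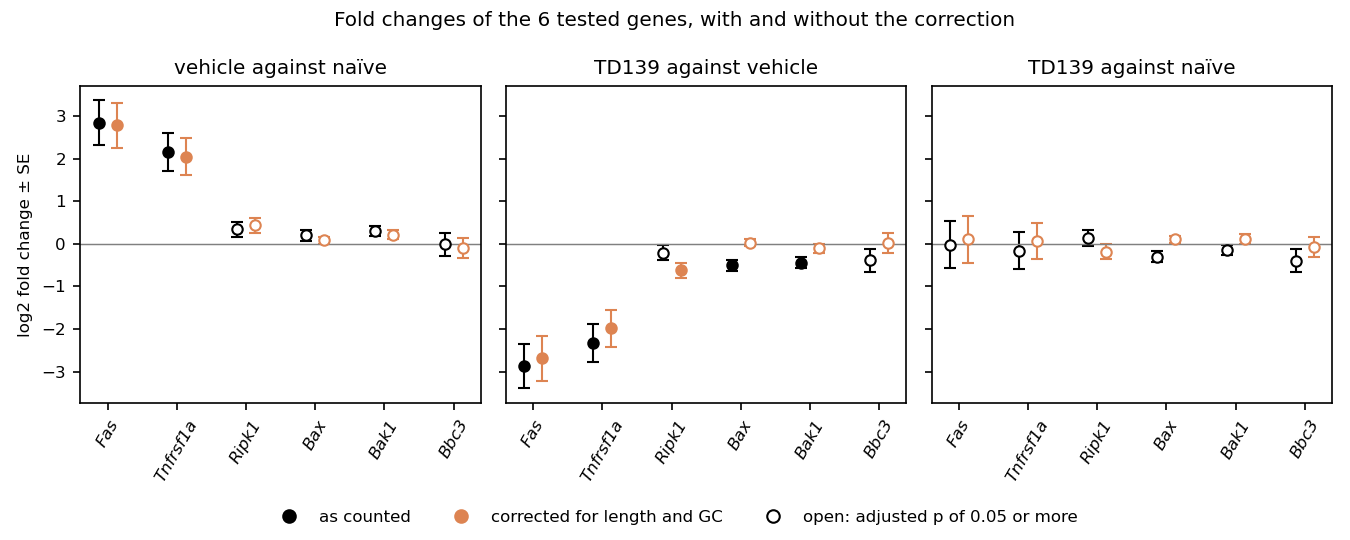
Log2 fold change ± SE (vertical axis) of the 6 tested genes in the 3 comparisons, as counted (black) and after length and GC correction (orange); filled points have an edgeR adjusted p-value under 0.05. Fas and Tnfrsf1a keep their position in TD139 against vehicle mice, whereas Bax moves from −0.50 to 0.03 and Ripk1 from −0.21 to −0.62.

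TD139 mice were also set against naïve mice. By edgeR, 0 of the 6 tested members were called in either direction, and also 0 by DESeq2 and limma, while 1 of them, Bax, had an unadjusted edgeR p under 0.05. Over all tested genes, 2.72% were called higher and 2.38% lower. The log2 fold change of Fas was −0.02 ± 0.55 (95% confidence interval −1.23 to 1.19), that of Tnfrsf1a −0.16 ± 0.44 (−1.17 to 0.86) and that of Ripk1 0.14 ± 0.18 (−0.25 to 0.54). For Fas and Tnfrsf1a these intervals still include differences of about a log2 unit. All TD139 mice were below all naïve mice for Bax, at −0.30 ± 0.13 (edgeR adjusted p = 0.148), and for Bak1, at −0.13 ± 0.12 (edgeR adjusted p = 0.490). With length and GC correction, both differences were 0.12 on the log2 scale, in the opposite direction.

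Around the 8 members, 115 further genes of 7 cell death lists were followed, of which 105 had enough counts to be tested. In vehicle against naïve mice 8 of them (7.62%) were higher and 0 lower by edgeR, beside 4.91% and 2.89% of all tested genes, where 12 had an unadjusted p under 0.05 on the lower side, DESeq2 called 4 and limma 7. Without naïve mouse 1, 2 or 3 or vehicle mouse 3, 0 were called higher, where 0.00647 to 0.907% of all tested genes were, and 1 without vehicle mouse 1. In TD139 against vehicle mice 15 (14.3%) were higher and 24 (22.9%) lower, beside 17.2% and 16.2% of all tested genes, and 11 and 13 after length and GC correction, beside 10.1% and 10.6%. These counts were 4 and 8 without TD139 mouse 2, 7 and 8 without TD139 mouse 3 and 7 and 13 without vehicle mouse 3. Calls over all tested genes fell in the same fits, to 5.61% higher and 4.91% lower, 6.80% and 5.62%, and 8.07% and 8.37%. In TD139 against naïve mice 0 were higher and 3 (2.86%) lower by edgeR, beside 2.72% and 2.38% of all tested genes, where 10 had an unadjusted p under 0.05 on the higher side, DESeq2 called 6 and limma 17. The median log2 fold changes of the 105 genes in these comparisons were 0.02, −0.15 and −0.06. Of the called genes, Naip2, Bcl2a1b and Bik passed the filter on low counts only through the vehicle mice, so that their calls are no support. Without these 3 genes, 6 were higher in vehicle against naïve mice, and 15 were higher and 22 lower in TD139 against vehicle mice. The lists hold 6 to 24 tested genes each, their counts are a description, and no test over a list was made.

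Among death receptors and their ligands, 9 of 13 genes were tested. Of these, 1 rose in vehicle against naïve mice (11.1%, beside 4.91% of all tested genes), and in TD139 against vehicle mice 2 fell (22.2%, beside 16.2%). Tnfrsf21, which encodes death receptor 6, had 16.8 to 21.8 CPM in naïve, 30.2 to 54.4 CPM in vehicle and 18.6 to 28.9 CPM in TD139 mice. It rose by a log2 fold change of 1.09 ± 0.24 and fell by 0.85 ± 0.23 (edgeR adjusted p = 0.0278 and 0.0210). The rise was not called without naïve mouse 1, 2 or 3 or vehicle mouse 1 or 3 (adjusted p = 0.0626 to 0.0963), nor the fall without TD139 mouse 2, TD139 mouse 3 or vehicle mouse 3 (adjusted p = 0.0918, 0.0854 and 0.0716). Tnfrsf12a, the receptor of TWEAK, fell by 1.54 ± 0.40 on the log2 scale in TD139 against vehicle mice (edgeR adjusted p = 0.0173), where vehicle mouse 3 had 27.3 CPM and the other vehicle mice 11.1 and 9.11 CPM. Its log2 fold change was −0.89 without vehicle mouse 3 (adjusted p = 0.0405) and −0.97 after length and GC correction (adjusted p = 0.145), and its call was lost without TD139 mouse 2 or 3 (adjusted p = 0.0738 and 0.0666). Of the ligands, Fasl and Tnf were nearly absent, and the ligands named here were chosen after their values were seen. Fasl, the ligand of FAS, had 1 to 11 counts in any mouse, and Tnf, the main ligand of TNFR1, had 0 to 3 counts. Lta, another ligand gene of the list, had 10 to 24 counts in naïve, 21 to 26 in vehicle and 8 to 14 in TD139 mice. Every TD139 mouse was below every vehicle mouse for Lta, but it was not called (log2 fold change −0.96 ± 0.43, edgeR adjusted p = 0.101). Tnfsf12, which encodes TWEAK, was abundant, with 198.0 ± 43.1 CPM in naïve, 128.4 ± 19.0 CPM in vehicle and 162.1 ± 36.0 CPM in TD139 mice (mean ± SD, n = 3). Every vehicle mouse was below every naïve mouse, at a log2 fold change of −0.62 ± 0.20 (edgeR adjusted p = 0.0757, and 0.0483 at −0.73 after the correction). In TD139 against vehicle mice the log2 fold change of Tnfsf12 was 0.34 ± 0.20 (edgeR adjusted p = 0.201, and 0.024 at 0.86 after the correction).

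The list of receptor complex adaptors, ubiquitin enzymes and caspase-8 held 24 genes, all tested. In vehicle against naïve mice edgeR called 0 of them, with 6 at an unadjusted p under 0.05, DESeq2 4 and limma 4, whereas in TD139 against vehicle mice 4 fell (16.7%, beside 16.2% of all tested genes) and 5 rose (20.8%, beside 17.2%). Casp8, the protease that starts receptor-driven apoptosis and holds back necroptosis, had 1.31 to 1.61 CPM in naïve, 2.36 to 4.87 CPM in vehicle and 0.790 to 2.04 CPM in TD139 mice. It fell by 1.45 ± 0.40 on the log2 scale (edgeR adjusted p = 0.0181), and by 1.37 after length and GC correction (adjusted p = 0.0315), but it was not called without TD139 mouse 2, TD139 mouse 3 or vehicle mouse 3 (adjusted p = 0.0837, 0.0764 and 0.0792). Tradd, the adaptor of TNFR1, fell by 0.67 ± 0.19 (edgeR adjusted p = 0.0214), but its corrected log2 fold change was −0.22 (adjusted p = 0.395), and it was −0.38 with the second sequencing run alone (adjusted p = 0.237). The call was also lost without TD139 mouse 2 or 3 or vehicle mouse 1 or 2. Tnfaip3, which encodes the ubiquitin-editing enzyme A20, was higher in TD139 mice by 1.33 ± 0.28 on the log2 scale (edgeR adjusted p = 0.0107, 0.0648 at 0.96 after the correction and 0.0512 without TD139 mouse 2). Its levels were 254 to 365 CPM in naïve, 102 to 183 CPM in vehicle and 228 to 422 CPM in TD139 mice. The naïve mice thus lay above all vehicle mice and overlapped the TD139 mice. Tab3, a partner of the kinase TAK1, rose by 1.08 ± 0.21 (edgeR adjusted p = 0.00706), and remained called after the correction at 0.57 (adjusted p = 0.0165). Fam105b, the older symbol of the deubiquitinase gene Otulin, was the called gene of this list in TD139 against naïve mice, at −0.55 ± 0.12 (edgeR adjusted p = 0.0420). It was not called after the correction, at −0.21 (adjusted p = 0.313), nor without TD139 mouse 2 or 3, naïve mouse 1 or 2 or vehicle mouse 2 (adjusted p = 0.0538 to 0.163).

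Of 20 genes listed as partners of RIPK3 and MLKL, 19 were tested. Of these, 4 rose in vehicle against naïve mice (21.1%, beside 4.91% of all tested genes), and in TD139 against vehicle mice 8 fell (42.1%, beside 16.2%) and 2 rose (10.5%, beside 17.2%). Flot1 and Flot2, which encode flotillins that remove phosphorylated MLKL from the membrane, rose by 0.65 ± 0.15 and 0.51 ± 0.12 on the log2 scale (edgeR adjusted p = 0.0294 and 0.0300), but neither rise was called without naïve mouse 1, 2 or 3 or vehicle mouse 1 or 3 (adjusted p = 0.0640 to 0.106). In TD139 against vehicle mice they fell by 0.89 ± 0.15 and 0.72 ± 0.12 (edgeR adjusted p = 0.00568 for both). Both falls were called in all 11 other settings and with any 1 mouse left out. Over the other settings the log2 fold changes ranged from −0.98 to −0.46 for Flot1 and from −0.81 to −0.46 for Flot2. Trim21, an antibody-binding ubiquitin ligase, rose by 1.11 ± 0.30 and fell by 1.03 ± 0.30 (edgeR adjusted p = 0.0456 and 0.0232). The rise was called in only 2 of the 9 fits with 1 mouse left out, those without vehicle mouse 2 or TD139 mouse 1 (adjusted p = 0.0525 to 0.152 in the others), and not with the mouse's number in its group as a block, the replicate block (0.0719), or the second run alone (0.0939). The fall was not called without TD139 mouse 2, TD139 mouse 3 or vehicle mouse 3 (adjusted p = 0.101, 0.0970 and 0.102). Tlr3, a sensor of double-stranded RNA, rose by 1.09 ± 0.30 in vehicle mice (edgeR adjusted p = 0.0494). This call was lost in 7 of the 9 fits with 1 mouse left out, all but those without TD139 mouse 1 or 3 (adjusted p = 0.0507 to 0.154), without the filter on low counts (0.0513), with the replicate block (0.0524) and with either run alone (0.0754 and 0.0574). Ticam1, which encodes its adaptor TRIF, fell by 0.98 ± 0.19 in TD139 mice (edgeR adjusted p = 0.00650). Stub1, a ubiquitin ligase gene, and Chmp2a, a gene of the membrane repair complex ESCRT-III, were lower in TD139 than in naïve mice, with log2 fold changes of −0.44 ± 0.11 and −0.55 ± 0.12 (edgeR adjusted p = 0.0470 and 0.0420). Neither was called in that comparison after length and GC correction (−0.10 and −0.14, adjusted p = 0.551 and 0.331), nor without TD139 mouse 2 or 3, naïve mouse 1 or 2 or vehicle mouse 1 or 2, and Stub1 also not without vehicle mouse 3.

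Among the BH3-only and other pro-apoptotic BCL-2 family genes, 10 of 12 were tested, edgeR called 0 in vehicle against naïve mice (2 at an unadjusted p under 0.05, 0 by DESeq2 and 2 by limma), and 2 fell in TD139 against vehicle mice (20%, beside 16.2% of all tested genes). Bid, which links caspase-8 to the mitochondria, fell by 0.91 ± 0.26 on the log2 scale (edgeR adjusted p = 0.0227, and 0.0660 at −0.70 after the correction). Without vehicle mouse 3 its log2 fold change was −0.60 (adjusted p = 0.104), and the call was also lost without TD139 mouse 2 or 3. The other called gene was Bik, with 12 to 37 counts in vehicle and 2 to 11 counts in TD139 mice. Of the anti-apoptotic BCL-2 family, 6 of 9 genes were tested. In vehicle against naïve mice 1 was called higher (16.7%, beside 4.91% of all tested genes), and in TD139 against vehicle mice 2 were called lower (33.3%, beside 16.2%). Bcl2l1, which encodes BCL-XL, the main inhibitor of BAX and BAK in many cells, fell by 0.47 ± 0.08 (edgeR adjusted p = 0.00568), from 120 to 133 CPM in vehicle to 86.9 to 95.7 CPM in TD139 mice. Its log2 fold change after the correction was −0.19 (adjusted p = 0.0789). The gene called in both comparisons was Bcl2a1b, with 0 to 1 counts in naïve, 15 to 46 in vehicle and 0 to 6 in TD139 mice. It passed the filter only through the vehicle mice, and its near-identical paralogs make its counts uncertain.

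All 19 genes of the apoptosome, the caspases and their inhibitors were tested, and 1 was called higher in vehicle against naïve mice (5.26%, beside 4.91% of all tested genes). Between TD139 and vehicle mice 5 rose (26.3%, beside 17.2%) and 2 fell (10.5%, beside 16.2%). Xiap, which inhibits caspases, rose in TD139 mice by 1.16 ± 0.23 on the log2 scale (edgeR adjusted p = 0.00825), and by 0.48 after the correction (adjusted p = 0.0458). Casp2, which encodes caspase-2, rose by 0.53 ± 0.15 (edgeR adjusted p = 0.0196), and was still called after the correction (adjusted p = 0.0330), but not without TD139 mouse 2, TD139 mouse 3 or vehicle mouse 3 (adjusted p = 0.0765, 0.0677 and 0.0697). Endog, a mitochondrial nuclease, fell by 0.48 ± 0.16 (edgeR adjusted p = 0.0342), but its log2 fold change was 0.05 after the correction, and its call was also lost without TD139 mouse 2 or 3, vehicle mouse 2 or 3 or naïve mouse 2. Naip2, a sensor of bacterial proteins and member of a gene family with close copies, was the gene called in vehicle against naïve mice, with 0 counts in all naïve mice, 16 to 27 counts in vehicle mice and 0 to 12 counts in TD139 mice. It passed the filter only through the vehicle mice.

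Of 21 genes of p53 and its targets, 19 were tested. Only Phlda3 rose in vehicle against naïve mice (1 gene, 5.26%, beside 4.91% of all tested genes), and in TD139 against vehicle mice 4 fell (21.1%, beside 16.2%) and 3 rose (15.8%, beside 17.2%). Phlda3, an inhibitor of AKT, had 8.14 to 9.99 CPM in naïve, 13.4 to 19.4 CPM in vehicle and 5.60 to 7.60 CPM in TD139 mice. It rose by 0.78 ± 0.19 and fell by 1.30 ± 0.19 on the log2 scale (edgeR adjusted p = 0.0344 and 0.00500), and both calls held after the correction. The rise was not called with the replicate block (adjusted p = 0.0534), nor without naïve mouse 1, 2 or 3 or vehicle mouse 1 or 3 (0.0628 to 0.117). Cdkn1a, the cell cycle inhibitor p21, fell by 1.75 ± 0.50 (edgeR adjusted p = 0.0252, and 0.0832 at −1.40 after the correction), and it was not called without TD139 mouse 1, TD139 mouse 2 or vehicle mouse 3 (adjusted p = 0.0624, 0.0883 and 0.0816). Perp, a membrane protein gene induced by p53, fell by 2.08 ± 0.60 (edgeR adjusted p = 0.0284), where vehicle mouse 2 had 21.9 CPM and the others of its group 4.72 and 4.77 CPM. Its log2 fold change was −0.94 without vehicle mouse 2 (adjusted p = 0.0456), and its call was lost without TD139 mouse 1, 2 or 3 (adjusted p = 0.0540, 0.111 and 0.103) and, at −1.84, after the correction (adjusted p = 0.0517). It was also lost with limma (0.0572) and with only the groups compared (0.0641). Mdm4, an inhibitor of p53, rose by 1.58 ± 0.30 (edgeR adjusted p = 0.00705), and by 1.08 after the correction (adjusted p = 0.0126).

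**Figure D3:**
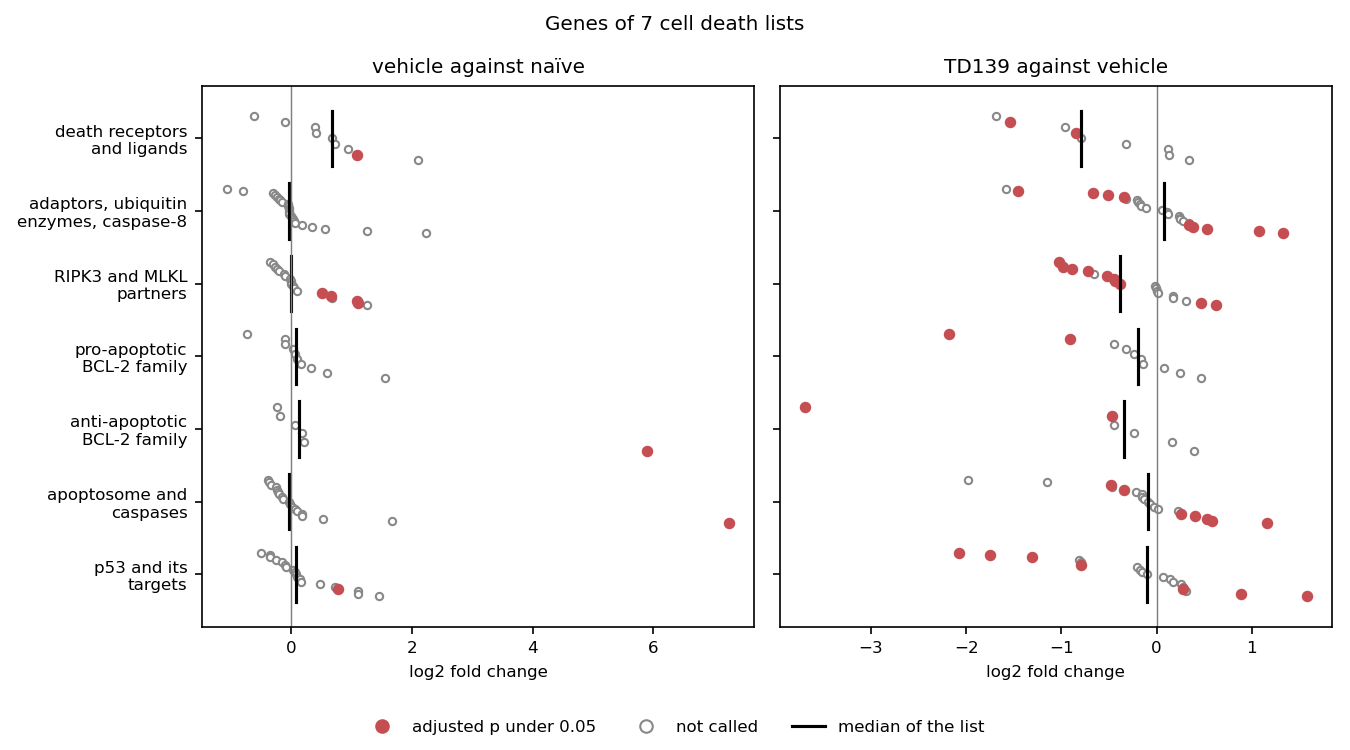
Log2 fold changes (horizontal axis) of the tested genes of 7 cell death lists in vehicle against naïve mice (left) and TD139 against vehicle mice (right); red points have an edgeR adjusted p-value under 0.05 and black bars are the median of each list. The 2 points farthest to the right on the left side are Naip2 and Bcl2a1b, with 0 to 1 counts in naïve mice, whose fold changes depend on the prior count.

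The levels of Fas and Tnfrsf1a went with those of microglia and macrophage markers, and the levels of Bak1 and Bax less closely. Of the 16 markers, all tested, 10 rose in vehicle against naïve mice and 13 fell in TD139 against vehicle mice, and none was at 0 in all mice. Over all tested genes, 4.91% were called higher in the first comparison and 16.2% lower in the second. Over the 9 mice, the Pearson r of log2 CPM with the log2 summed markers was 0.96 for Tnfrsf1a, 0.94 for Fas, 0.78 for Bak1, 0.70 for Bax, 0.62 for Ripk1 and 0.27 for Bbc3. The points share their library, and the groups set most of their spread, so these values are a description. Fas and Tnfrsf1a had an r of 0.96 with each other. TD139 mouse 1, with the most microglia markers of its group, also had the most Fas and Tnfrsf1a of its group. Other mice went the other way within their group. Vehicle mouse 1 had more markers than vehicle mouse 2 but less Fas, at 2.32 against 3.39 CPM. Bak1 was highest in TD139 mouse 3 of its group, at 22.1 CPM, the mouse with the fewest markers. Correlations with the markers of other cell types were not computed. The part of the microglia markers in these results was not tested.

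**Figure D4:**
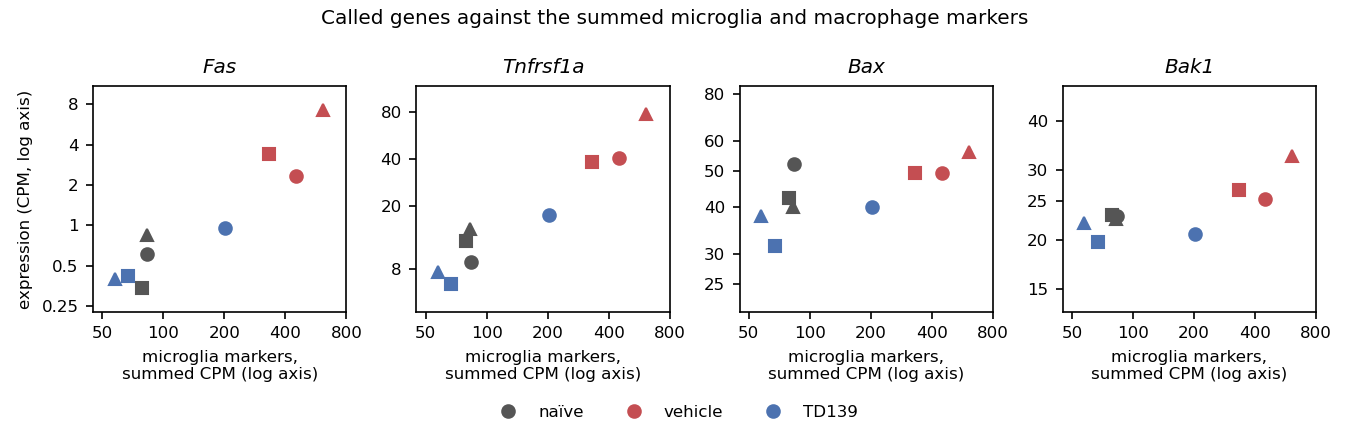
CPM of the 4 called genes (vertical axes, log scale) against the summed CPM of 16 microglia and macrophage markers (horizontal axes, log scale); each point is a mouse, coloured by group, with shapes for mouse 1 (circle), 2 (square) and 3 (triangle). Fas and Tnfrsf1a lie along a rising line, whereas Bax spans 40.0 to 52.2 CPM among the naïve mice at nearly 1 level of the markers.

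Markers of some other cells also differed between the groups. The shares of all tested genes to set beside these calls are 4.91% higher and 2.89% lower in vehicle against naïve mice. In TD139 against vehicle mice they are 17.2% higher and 16.2% lower. Of 13 rod markers, 9 were lower in vehicle than in naïve mice and 5 were higher in TD139 than in vehicle mice. Their sums were 84600 to 99360 CPM in naïve, 49800 to 69910 CPM in vehicle and 69550 to 86110 CPM in TD139 mice. Of 10 markers of Müller glia, the radial glia of the retina, 5 were higher in vehicle than in naïve mice and 4 lower in TD139 than in vehicle mice, with sums of 4567 to 5145, 6254 to 6869 and 5060 to 6137 CPM in naïve, vehicle and TD139 mice. Markers of the retinal pigment epithelium summed to 112.0 to 245.4, 209.7 to 441.6 and 121.3 to 180.7 CPM, with 2 of 7 tested called lower in TD139 than in vehicle mice. Vascular markers summed to 96.8 to 115.6, 132.5 to 149.9 and 117.8 to 144.5 CPM. Of these 8 markers, 1 was called in each direction between TD139 and vehicle mice, which is not above the shares of all tested genes. Markers of monocytes and neutrophils summed to 1.06 to 1.27, 2.79 to 6.04 and 0.830 to 2.34 CPM in naïve, vehicle and TD139 mice, with 1 of 2 tested called higher in vehicle than in naïve mice and Retnlg at 0 in every mouse. Those of lymphocytes summed to 1.1 to 1.73, 1.22 to 2.29 and 1.22 to 1.86 CPM, with Cd3e, Cd3g, Ms4a1 and Ncr1 at 0 in every mouse. The part of these markers in the results was not tested.

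For each tested member, the 2 genes with the most similar pattern over the 9 mice were found by Pearson's r of log2 CPM among all tested genes. Fas was most like Icosl and Ets2 (r = 0.98 for both), and Tnfrsf1a most like Serpina3n and Shisa5 (r = 0.99 for both). Bax was closest to Nrsn2 and Rpl36al (r = 0.99 for both), and Bak1 to Mfsd2a (r = 0.99) and Lmna (r = 0.98). For Ripk1 they were Dctd and Cdc14a (r = 0.96 for both), and for Bbc3 Tmem110 (r = 0.95) and Lrrc49 (r = 0.93). These are the highest values among all other tested genes, over mice that differ by group, and they are given as a description.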

How the data were processed

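For each mouse and flow cell run, the authors deposited whole-number read counts per gene symbol, made with BaseSpace RNA Express from single reads of Illumina Stranded mRNA libraries. The submitters' processing notes name the build mm10. The annotation and strand setting are not given in the sources used here. The paper speaks of normalized counts, but the values held are unscaled. Reads outside genes (16.5 to 22.8%) and ambiguous reads (0.303 to 0.471%) were left out.

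Runs were summed per mouse. All 3 groups entered 1 fit in edgeR 4.0.16 (R 4.3.3) after filterByExpr and TMM scaling, with its robust quasi-likelihood F test. P-values were Benjamini-Hochberg adjusted over 15196 genes. The SE is the log2 fold change divided by the square root of F. Of 23420 symbols, 98.4% were joined to GENCODE M21. The length and GC correction fitted splines with 4 degrees of freedom per mouse and entered them as offsets. The steps were tested on simulated data. Other tools were DESeq2 1.42.0 and limma 3.58.1, beside other scalings, filters, single runs, a replicate block and each mouse left out.

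The members and the gene lists were chosen with earlier results of these data known. Named from each list and comparison were up to 4 called genes with the largest log2 fold change and a mean of at least 20 counts. A gene that meets this rule is not reported here. Fasl, Tnf, Lta, Tnfsf12, Bik, Bcl2a1b and Naip2 fall outside this rule and were chosen after their values were seen. Promoter sequences are from RefSeq (GRCm38.p6) and matched all 8 members. With 3 mice against 3, an exact permutation test cannot go below p = 0.1, so none was used. Each group holds 3 mice, which limits the precision.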

Additional observations from a re-analysis of the deposited data

How the results depend on the processing

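Of 1000 fold changes of named genes recomputed under the alternatives, 829 kept their direction and their side of the threshold, 139 kept their direction but lost the call, 1 gained a call and 31 changed direction. The members called higher in vehicle against naïve mice numbered 2 under DESeq2, limma, other scalings, other filters, single runs, only the groups compared and the length and GC correction, and 0 to 2 with 1 mouse left out. The members called lower in TD139 against vehicle mice numbered 3 after the length and GC correction, 2 to 4 with 1 mouse left out and 4 otherwise. The other 4 counts of called members were 0 throughout. The cause was not tested.

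Mice with the same number did not deviate together (correlations of deviations −0.26 to 0.28), so the numbers were not taken as pairs. With the replicate number as a block, 1 member (Fas) was called higher in vehicle against naïve mice, and Tnfrsf1a had an adjusted p of 0.0560.

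Direction changes were among uncalled values, except for Bax and Endog under the length and GC correction. That correction gave log2 fold changes in TD139 against vehicle mice of 0.0329 for Bax, 0.0214 for Bbc3 and 0.0482 for Endog, and in TD139 against naïve mice of −0.18 for Ripk1, 0.12 for Bax, 0.12 for Bak1, 0.11 for Fas and 0.0649 for Tnfrsf1a. Bbc3 in vehicle against naïve mice was 0.000236 with CPM over 1 in 3 mice, 0.10 with library size alone, 0.15 with limma, 0.00719 with only the groups compared, 0.14 with run 2 alone and −0.22 to 0.25 with 1 mouse left out. Fas in TD139 against naïve mice was 0.00703 with library size alone, 0.19 with limma, 0.0665 with the block, 0.10 with run 2 alone and −0.54 to 0.32 with 1 mouse left out. Tnfrsf1a there was −0.74 to 0.11 and Ripk1 in TD139 against vehicle mice −0.35 to 0.00851 with 1 mouse left out.

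Among the 105 other cell death genes, those called higher in vehicle against naïve mice numbered 4 to 18 over the settings and 0 to 12 with 1 mouse left out, and those called lower 0 to 7 and 0 to 3. In TD139 against vehicle mice 10 to 25 were higher and 13 to 32 lower, or 4 to 21 and 8 to 27 with 1 mouse left out. In TD139 against naïve mice 0 to 17 were higher and 0 to 18 lower, or 0 to 7 and 0 to 6. Over all tested genes, calls in vehicle against naïve mice ranged from 559 to 1867 higher and 258 to 1553 lower, and fell to 1 higher and 0 lower without naïve mouse 2. Those in TD139 against vehicle mice were 1529 to 3555 higher and 1618 to 3459 lower, or 867 to 2995 and 759 to 2931 with 1 mouse left out, lowest without TD139 mouse 2. In TD139 against naïve mice they ranged from 0 to 3021 higher (limma 3021) and 0 to 2457 lower, or 0 to 1523 and 0 to 1156 with 1 mouse left out, and were 0 and 0 after the length and GC correction or with the block. Ripk3 and Mlkl had too few counts to be tested.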
